A study of Mus musculus with 10 samples.

Results

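The genes described here are 10 members of the fibroblast growth factor (FGF) system, all of which were found by name among the 54532 genes of the deposited table: the ligands Fgf2, Fgf7, Fgf9, Fgf10 and Fgf18, the receptors Fgfr1, Fgfr2, Fgfr3 and Fgfr4, and the inhibitor Spry2. They were measured by bulk RNA-sequencing of whole lungs at P14 in 5 mice of the IncPBF group and 5 mice of the sham group. All mice were wild-type C57/BL6 pups that had a laparotomy under isoflurane at P7. In the IncPBF group (increased pulmonary blood flow), a needle was passed from the abdominal aorta into the inferior vena cava to create a fistula, and the sham group had the same surgery without the puncture. The methods allow pups of either sex, and no label states the sex, litter or date of surgery of a lung, so the p-values measure only the spread between these lungs. The comparison asked which FGF genes differed in level between lungs with and without the shunt.

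FGFs are signaling proteins that bind receptor tyrosine kinases on the cell surface, with heparan sulfate as a cofactor, and activate the Ras and ERK cascade through adaptor proteins. In the lung, Fgf10 and Fgf7 from the mesenchyme act on the epithelial form of Fgfr2, Fgf9 comes from the mesothelium and epithelium of the embryonic lung, and Fgf18 is a mesenchymal ligand that binds mainly Fgfr3 and Fgfr4. Mice that lack both Fgfr3 and Fgfr4 form alveoli poorly after birth. Sprouty proteins such as Spry2, and phosphatases such as Dusp6, are induced by receptor signaling and dampen it, and the transcription factors Etv4 and Etv5 are among the usual targets of FGF signaling.

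Of the 10 members, Fgf18 and Fgf9 rose in the IncPBF group, Fgf2, Fgf7 and Fgfr3 fell, and Fgf10, Fgfr1, Fgfr2, Fgfr4 and Spry2 did not pass the test. Fgf18 was 2.34-fold and Fgf9 3.09-fold the sham mean. Both rose by at least 1 on the log2 scale with a limma adjusted p under 0.05, as did 1.68% of all genes tested. The decreases were smaller, at most 26.2% for Fgf7. Levels are in FPKM, the fragments assigned to a gene, divided by the length of its exons and by a divisor for each lung. This divisor is not the total of fragments on genes. It exceeded that total for every IncPBF lung, most for IncPBF lung 4, with a ratio of 1.07. It also exceeded the total for sham lungs 3 and 4. For sham lungs 1, 2 and 5 it fell short of the total, most for sham lung 5, with a ratio of 0.958. All 10 members passed the filter for the test, a mean of at least 0.5 FPKM over the 10 lungs. The test was limma on log2(FPKM + 0.1), and a gene was called when its p, adjusted over all 15388 genes tested by the Benjamini-Hochberg method, was under 0.05. In all, 5 of the members were called (50.0%), beside 32.3% of all genes tested, and 2 were called higher and 3 lower, beside 16.1% and 16.2% of all genes. The groups did not overlap in 3 members, Fgf18, Fgf9 and Fgf2, which 23.2% of all genes tested also showed. The median log2 fold change of the members was -0.02, against 0.01 over all genes tested.

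**Figure D1:**
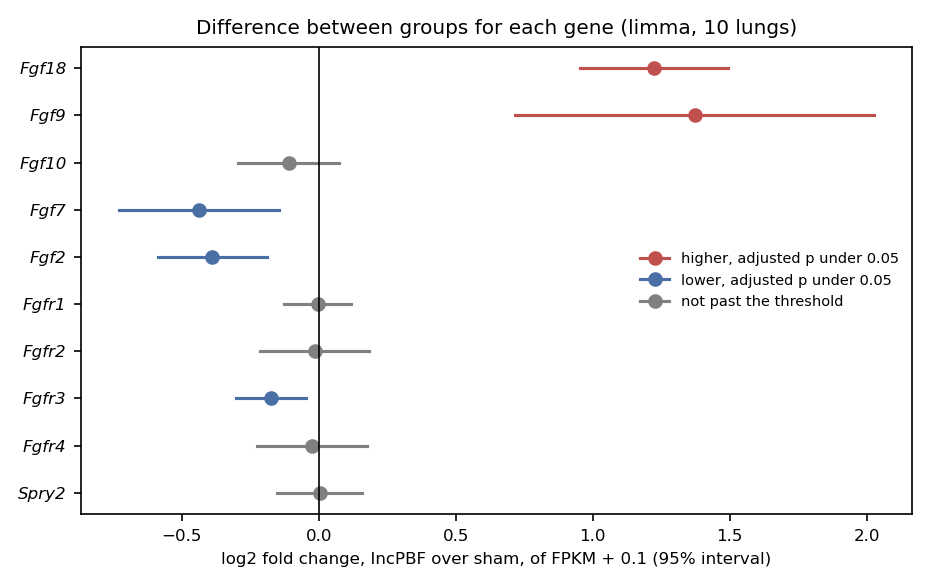
Log2 fold change (x axis, IncPBF over sham, of FPKM + 0.1) of each of the 10 genes (y axis), as points with 95% intervals from limma over 10 lungs. Fgf18 at 1.22 and Fgf9 at 1.37 lie to the right of 0, Fgf7, Fgf2 and Fgfr3 lie to the left, and the intervals of the other genes include 0.

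The lungs held 16103423 to 20318525 fragments on genes, and for a gene of 1 kb, each fragment was worth 0.0482 to 0.0580 FPKM. Of the markers of alveolar type 1 cells, 8 of 8 were called lower in the IncPBF group, as were 4 of 6 of alveolar type 2 cells and 4 of 6 of endothelium, beside 16.2% of all genes tested, but these lung markers were abundant in both groups, with Ager at 584 ± 11.0 and 853 ± 114 FPKM. Of 3 red blood cell markers, 2 were called lower, with a summed level of 228 to 1776 against 1372 to 2203 FPKM, and 4 heart muscle markers, none of them called, summed to 31.9 to 96.1 against 7.23 to 45.0 FPKM. Markers of cartilage and fat were near 0, with summed levels of at most 0.372 and 1.23 FPKM in any lung. Sham lung 5 had little airway RNA, with Scgb1a1, the club cell secretory protein, at 128 FPKM against 5116 to 11743 FPKM in the other sham lungs. Xist, a transcript that marks female cells, was 52.4 to 66.5 FPKM in IncPBF lungs 2 to 5, but only 0.0144 FPKM in IncPBF lung 1, and it did not exceed 0.0770 FPKM in any sham lung. The groups therefore differed in Xist as well as in surgery, with IncPBF lung 1 as the exception, and values for that lung and with Xist in the fit follow the single genes. A fit with Xist in it compares the groups mainly through that lung. In bulk RNA, fewer cells of a type and less RNA per cell cannot be told apart.

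Fgf18 (ENSMUSG00000057967) lies on the minus strand at chr11:33117430-33147400 of GRCm38, with exons of 1187 bases in all and no other gene with exons in its span. It was 25.3, 29.2, 36.5, 36.0 and 32.3 FPKM in IncPBF lungs 1 to 5, and 10.5, 13.5, 15.9, 13.9 and 14.2 FPKM in sham lungs 1 to 5. Every IncPBF lung was above every sham lung, and the lowest of them was IncPBF lung 1. The means were 31.9 ± 4.72 and 13.6 ± 1.97 FPKM (SD, n = 5 per group), and the log2 fold change was 1.22 (standard error 0.12, 95% interval 0.95 to 1.49), with a limma adjusted p of 5.74e-05. The two-sided exact permutation p was 0.00794, the smallest that 5 lungs against 5 allow. Only 207 of the 15388 genes tested, Fgf18 included, had a log2 fold change this high. Its values rest on 223 to 801 fragments per lung.

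Fgf18 was higher beside a shift in mesenchymal markers. Of 5 markers of myofibroblasts and smooth muscle, Acta2 (smooth muscle actin), Tgfbi and Myh11 rose by 1.57, 1.97 and 0.73 on the log2 scale, Pdgfra, a receptor of myofibroblast precursors, fell by 1.36, and Tagln did not pass the test. Their summed level was 465 to 709 FPKM in the IncPBF lungs against 208 to 330 FPKM in the sham lungs. Of 6 markers of alveolar fibroblasts, Wnt2 rose by 0.71, Inmt, Limch1 and Npnt fell by 2.99, 0.67 and 0.50, and Tcf21 and Plin2 did not pass, with summed levels of 576 to 732 FPKM against 998 to 1544 FPKM. The part of these cell populations in the level of Fgf18 was not tested.

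Fgf9 (ENSMUSG00000021974, chr14:58070547-58112720, plus strand) was the least abundant member in both groups. It was 0.590, 1.29, 0.675, 0.910 and 1.14 FPKM in IncPBF lungs 1 to 5, against 0.156, 0.251, 0.469, 0.405 and 0.210 FPKM in sham lungs 1 to 5. The groups did not overlap, but IncPBF lung 1 and sham lung 3 came close to each other, and the values rest on 13 to 112 fragments per lung. The means were 0.920 ± 0.296 and 0.298 ± 0.133 FPKM (SD, n = 5 per group), and the log2 fold change was 1.37 (standard error 0.30, 95% interval 0.72 to 2.03, limma adjusted p = 0.00538, exact permutation p = 0.00794). The pseudocount of 0.1 FPKM lowers the fitted fold change of a gene at so low a level. Mesothelial markers moved the other way: Msln, Upk3b and Lrrn4 fell by 0.88, 1.27 and 1.76 on the log2 scale, Wt1 was below the filter, and the summed level was 19.5 to 43.4 FPKM in the IncPBF lungs against 38.5 to 98.0 FPKM in the sham lungs. Their part in the level of Fgf9 was not tested.

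Fgf10 (ENSMUSG00000021732, chr13:118669791-118792115, plus strand), the ligand that drives branching of the lung bud, was 6.63, 6.68, 6.36, 5.86 and 8.11 FPKM in IncPBF lungs 1 to 5, and 6.84, 7.36, 6.70, 7.44 and 7.85 FPKM in sham lungs 1 to 5. The groups overlapped, and the highest lung of all was IncPBF lung 5. The log2 fold change was -0.11 (95% interval -0.29 to 0.07, limma adjusted p = 0.348, exact permutation p = 0.254), so a decrease to 0.816 times or a rise to 1.05 times the sham level lay within the interval. An antisense gene, Gm16263, shares 123 bases of its exons.

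Fgf7 (ENSMUSG00000027208, chr2:126034658-126091185, plus strand), also called keratinocyte growth factor, was 6.88, 8.35, 6.15, 5.55 and 8.17 FPKM in IncPBF lungs 1 to 5, and 8.46, 10.4, 10.3, 10.9 and 7.55 FPKM in sham lungs 1 to 5. IncPBF lungs 1, 3 and 4 were below every sham lung, and IncPBF lungs 2 and 5 lay within the sham range because of the low sham lung 5. The means were 7.02 ± 1.23 and 9.51 ± 1.43 FPKM (SD, n = 5 per group), and the log2 fold change was -0.44 (standard error 0.13, 95% interval -0.73 to -0.14, limma adjusted p = 0.0277, exact permutation p = 0.0317). The call was lost when any of IncPBF lungs 1, 3 or 4 or sham lungs 2, 3 or 4 was left out, with limma adjusted p values of up to 0.0652, and with each lung scaled to an equal total of fragments (0.0641).

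Fgf2 (ENSMUSG00000037225, chr3:37348346-37410108, plus strand), basic FGF, which is made by vascular and mesenchymal cells, was 5.76, 5.96, 4.48, 4.73 and 6.19 FPKM in IncPBF lungs 1 to 5, and 7.12, 7.54, 6.77, 6.87 and 7.08 FPKM in sham lungs 1 to 5. All IncPBF lungs were below all sham lungs, and the sham lungs were the closer together, with an SD of 0.300 FPKM against 0.768 FPKM. The mean was 23.4% lower in the IncPBF group, at 5.42 against 7.08 FPKM, and the log2 fold change was -0.39 (standard error 0.09, 95% interval -0.59 to -0.19, limma adjusted p = 0.00806, exact permutation p = 0.00794). The antisense gene Nudt6 shares 640 bases, or 9.44%, of the exons of Fgf2, and the strand setting of the counting is not given in the sources used here. Nudt6 was 1.07 ± 0.130 and 1.09 ± 0.131 FPKM (adjusted p = 0.921 from limma). Endothelial markers stood beside this decrease, with a summed level of 551 to 620 FPKM in the IncPBF lungs against 637 to 875 FPKM in the sham lungs, and their part in it was not tested.

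**Figure D2:**
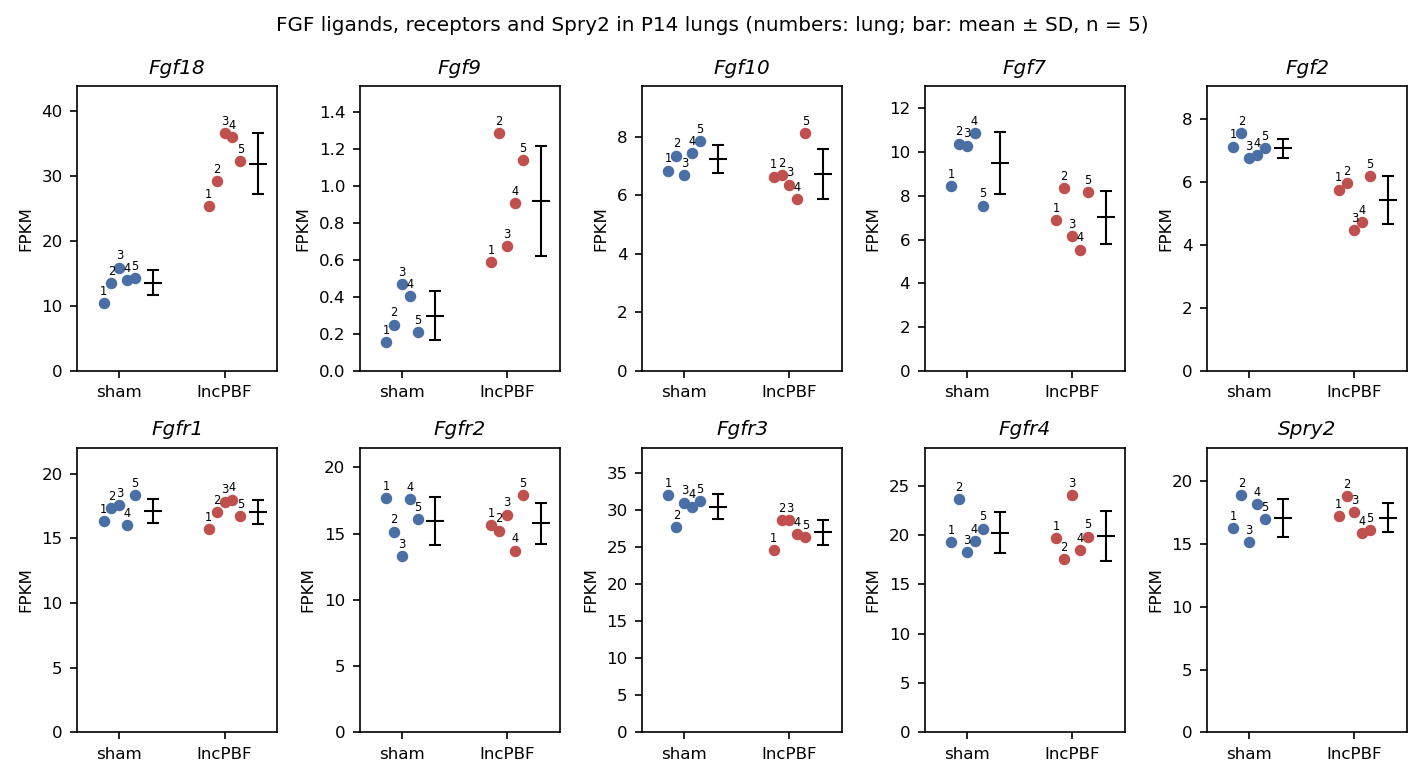
FPKM (y axes, each from 0) of the 10 genes in the sham and IncPBF lungs, with the lung number above each point and the mean ± SD of 5 lungs as a bar. The IncPBF points lie above all sham points for Fgf18 and Fgf9 and below all of them for Fgf2, while the points of the other genes overlap.

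The first 5 panels of the plot of FPKM by lung hold ligands that rose and ligands that fell. The FPKM of the 5 ligands summed to between 45.2 and 55.9 in the IncPBF lungs and between 33.0 and 40.1 in the sham lungs. Fgf18 made up 56.0% to 67.8% of that sum in the IncPBF lungs, with a median of 57.8%, and 31.7% to 39.6% in the sham lungs, with a median of 35.3%. The share of Fgf7 was 10.5% to 16.2% against 20.5% to 27.5%, and that of Fgf2 was 8.26% to 12.7% against 16.9% to 21.6%. The ratio of Fgf18 to Fgf10, the ligand that did not pass the test, ran from 3.82 to 6.14 in the IncPBF lungs and from 1.53 to 2.37 in the sham lungs. With Fgf1, a more abundant ligand outside the 10 members, added to the sum, the groups overlapped, at 84.9 to 97.0 FPKM in the IncPBF lungs against 86.4 to 97.9 FPKM in the sham lungs, and Fgf18 made up 29.8% to 43.0% against 11.5% to 18.4% of it. These shares describe the same values as above and were not tested on their own. They also depend on the annotated exon length of each gene, by which its FPKM is divided.

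**Figure D3:**
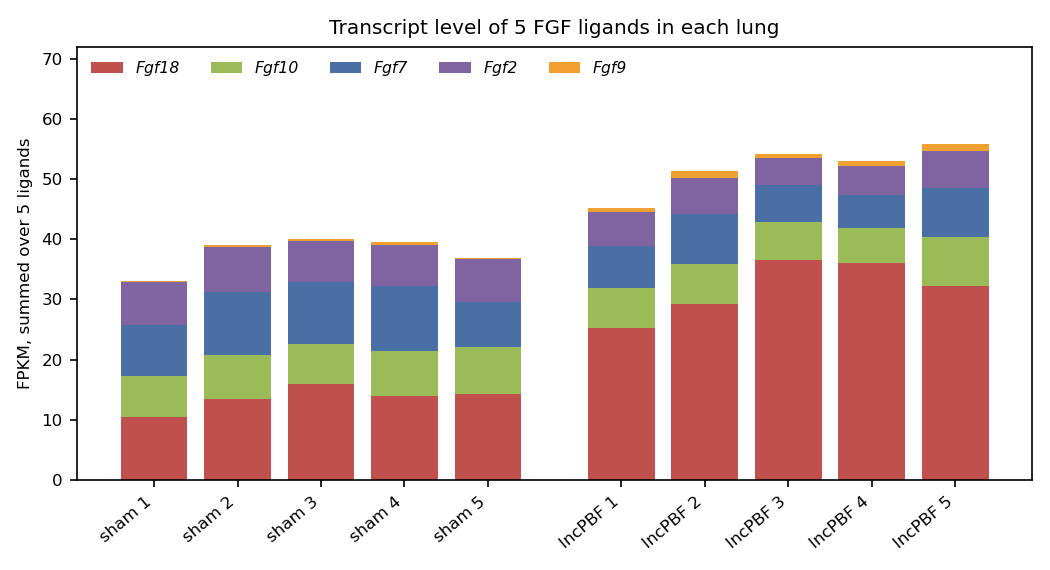
FPKM of Fgf18, Fgf10, Fgf7, Fgf2 and Fgf9, stacked (y axis, from 0), in each of the 10 lungs (x axis). The Fgf18 segment is taller in every IncPBF lung than in any sham lung, and the stacks reach 45.2 to 55.9 FPKM in the IncPBF lungs against 33.0 to 40.1 FPKM in the sham lungs.

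The 250 bases before a RefSeq transcription start of 4 ligands are shown because these genes moved in different ways, Fgf18 and Fgf9 upward, Fgf7 downward and Fgf10 without a call. RefSeq windows were found for 9 of the 10 members. The sequences are from RefSeq on GRCm38.p6, run 5′ to 3′ along the strand of the gene and end at the base before the start, at chr11:33147401-33147650 for Fgf18, chr14:58072436-58072685 for Fgf9, chr2:126034408-126034657 for Fgf7 and chr13:118714449-118714698 for Fgf10. None of these windows holds an annotated exon. The Fgf9 and Fgf10 windows lie inside the gene spans given above, so other annotated transcripts of these genes start farther upstream. In these sequences, capitals mark a GC box, GGGCGG or its reverse complement CCGCCC.
Fgf18: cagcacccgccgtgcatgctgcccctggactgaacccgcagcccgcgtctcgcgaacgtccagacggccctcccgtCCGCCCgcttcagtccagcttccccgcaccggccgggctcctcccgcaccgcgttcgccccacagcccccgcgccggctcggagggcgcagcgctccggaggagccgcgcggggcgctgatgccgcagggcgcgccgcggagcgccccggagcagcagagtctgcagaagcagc
Fgf9: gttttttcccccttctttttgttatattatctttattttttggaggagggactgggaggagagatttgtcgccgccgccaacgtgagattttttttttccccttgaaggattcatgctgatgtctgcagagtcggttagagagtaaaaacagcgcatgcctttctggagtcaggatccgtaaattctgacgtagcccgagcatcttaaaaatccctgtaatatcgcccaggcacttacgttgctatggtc
Fgf7: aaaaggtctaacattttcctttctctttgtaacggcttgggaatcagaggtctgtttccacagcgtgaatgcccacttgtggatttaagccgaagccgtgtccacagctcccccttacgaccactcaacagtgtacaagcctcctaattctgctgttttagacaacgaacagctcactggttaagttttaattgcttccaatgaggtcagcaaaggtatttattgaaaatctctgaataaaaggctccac
Fgf10: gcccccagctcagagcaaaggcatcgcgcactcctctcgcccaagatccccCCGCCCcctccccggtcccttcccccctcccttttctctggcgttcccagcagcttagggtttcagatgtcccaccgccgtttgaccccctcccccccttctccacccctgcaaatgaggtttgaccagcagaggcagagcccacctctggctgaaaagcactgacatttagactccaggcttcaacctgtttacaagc

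The Fgf18 window is rich in G and C, at 77.2%, against 61.2% for Fgf10, 44.8% for Fgf9 and 43.6% for Fgf7 and a median of 52.4% over 32851 RefSeq windows of the same length. Each window was searched on both strands for a TATA box (TATAAA), a GC box (GGGCGG), an ETS core (CCGGAA), an M-CAT element (CATTCC) and a glucocorticoid receptor motif (AGAACA). The windows of Fgf18 and Fgf10 hold 1 GC box each, at 174 to 169 and 199 to 194 bases before the start, and those of Fgf9 and Fgf7 hold none of these letters. Of all windows, 32.7% hold the GC box, 12.4% the TATA box, 12.0% the ETS core, 12.6% the M-CAT element and 16.1% the glucocorticoid receptor motif. The Fgf18 and Fgf9 windows, both of genes that rose, share no motif of those searched.

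Among the receptors, Fgfr3 fell and the other 3 did not pass the test. Fgfr3 (ENSMUSG00000054252, chr5:33721674-33737068, plus strand), the receptor that Fgf18 binds with high affinity, was 24.6, 28.7, 28.7, 26.8 and 26.3 FPKM in IncPBF lungs 1 to 5, and 32.1, 27.7, 31.0, 30.5 and 31.2 FPKM in sham lungs 1 to 5. The groups overlapped through the low sham lung 2 alone. The mean was 11.4% lower in the IncPBF group, and the log2 fold change was -0.18 (standard error 0.06, 95% interval -0.30 to -0.05, limma adjusted p = 0.0393, exact permutation p = 0.0238). This was the smallest change among the called members, and the call was lost in 15 of 23 alternative fits, including an equal total of fragments per lung (limma adjusted p = 0.253) and those without IncPBF lung 1, 4 or 5 or without sham lung 1, 3, 4 or 5. The antisense gene G630022F23Rik, at 0.0990 ± 0.0608 and 0.147 ± 0.0282 FPKM, shares 998 bases of its exons. All 8 markers of alveolar type 1 cells were lower beside Fgfr3, with a summed level of 1126 to 1235 FPKM in the IncPBF lungs against 1406 to 1837 FPKM in the sham lungs, and their part in its level was not tested.

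Fgfr1 (ENSMUSG00000031565, chr8:25513654-25575718), a receptor found largely on mesenchymal cells, was 17.1 ± 0.914 FPKM in the IncPBF group against 17.1 ± 0.950 FPKM in sham lungs (SD, n = 5 each), with a 95% interval of the log2 fold change from -0.13 to 0.12 (limma adjusted p = 0.957). Fgfr2 (ENSMUSG00000030849, chr7:130162451-133123350), whose epithelial form is the receptor of Fgf7 and Fgf10, was 15.8 ± 1.55 against 16.0 ± 1.83 FPKM, with an interval of -0.21 to 0.18 (limma adjusted p = 0.916). Gene-level values do not separate its epithelial and mesenchymal splice forms, and its annotated span of 2961 kb holds exons of 69 other genes, of which Ctbp2 shares 314 bases on the same strand. Fgfr4 (ENSMUSG00000005320, chr13:55152640-55168759) was 19.9 ± 2.50 against 20.2 ± 2.07 FPKM, with an interval of -0.23 to 0.18 (limma adjusted p = 0.855). For these 3 receptors, changes beyond 0.23 on the log2 scale in either direction lay outside the intervals. The 4 receptors summed to 75.6 to 87.0 FPKM in the IncPBF lungs against 80.1 to 86.3 FPKM in the sham lungs.

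By mean FPKM, which is divided by the length of all annotated exons of a gene, the order in the sham group was Fgfr3, Fgfr4, Fgfr1, Spry2, Fgfr2, Fgf18, Fgf7, Fgf10, Fgf2 and Fgf9. The places depend on that length, which was 1187 bases over 2 transcripts for Fgf18 and 7158 bases over 17 transcripts for Fgfr3. Only Fgfr3 and Fgfr4, and Fgf2 and Fgf9, were neighbours in this order whose sham lungs did not overlap. In the IncPBF group Fgf18 moved from the sixth place to the first, above Fgfr3, although their lungs overlapped, and the order of the other ligands stayed Fgf7, Fgf10, Fgf2 and Fgf9. There the neighbours without overlap were Fgfr3 and Fgfr4, Fgfr2 and Fgf7, and Fgf2 and Fgf9. Within the groups, no single lung led in all genes. IncPBF lung 1 was the lowest of its group in Fgf18, Fgf9, Fgfr1 and Fgfr3, IncPBF lung 4 in Fgf7, Fgf10, Fgfr2 and Spry2, and sham lung 3 was the lowest of its group in 5 members but the highest in Fgf18 and Fgf9.

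Spry2 (ENSMUSG00000022114, chr14:105891947-105896819, minus strand) was 17.2, 18.8, 17.5, 15.8 and 16.1 FPKM in IncPBF lungs 1 to 5, and 16.2, 18.9, 15.1, 18.1 and 17.0 FPKM in sham lungs 1 to 5. The groups overlapped over nearly their whole range. The 95% interval of the log2 fold change ran from -0.15 to 0.16 (limma adjusted p = 0.974), so that the level of this feedback inhibitor lay between 0.900 and 1.12 times the sham level.

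Of 10 other feedback genes, 9 were tested, 3 rose and 2 fell, beside 16.1% and 16.2% of all genes tested. With log2 Xist as a covariate, 0 of these 5 genes were called by limma, 4 of them with an unadjusted p under 0.05. Spry1 was 66.4 ± 5.76 FPKM in the IncPBF group against 46.5 ± 5.47 FPKM in the sham group (log2 fold change 0.52, limma adjusted p = 0.00137). Spry4 was 19.9 ± 3.17 against 12.5 ± 1.82 FPKM (log2 fold change 0.66, limma adjusted p = 0.00192). Dusp6, the phosphatase of ERK, rose by 0.56 on the log2 scale (50.8 ± 3.52 against 34.7 ± 5.32 FPKM, limma adjusted p = 0.00174). In these 3 genes every IncPBF lung was above every sham lung. In the other direction, Dusp4, a nuclear phosphatase of the same family, fell by 0.69 on the log2 scale (7.02 ± 1.60 against 11.2 ± 1.00 FPKM, limma adjusted p = 0.00354), and Il17rd, a membrane inhibitor of FGF receptors also known as Sef, fell by 0.42 (limma adjusted p = 0.00568). Every IncPBF lung was below every sham lung in Dusp4, while the groups overlapped in Il17rd. Of all genes tested, 23.2% had groups that did not overlap, in either direction.

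Of 6 target genes, all tested, 5 rose and 0 fell in limma, beside 16.1% and 16.2% of all genes tested. The same counts were found at an unadjusted p under 0.05 and in limma-voom on the recovered fragments, but with log2 Xist as a covariate only Etv4 was called. The median log2 fold change was 0.38 against 0.01 over all genes. Etv4 was 4.27, 4.19, 5.25, 4.16 and 3.10 FPKM in IncPBF lungs 1 to 5, and 0.305, 0.701, 1.11, 0.657 and 0.796 FPKM in sham lungs 1 to 5. The groups lay far apart, and the log2 fold change was 2.47 (standard error 0.25, limma adjusted p = 5.98e-05). Its close relative Etv5 was 37.9 ± 5.31 against 37.5 ± 5.04 FPKM (log2 fold change 0.01, limma adjusted p = 0.933), and was thus the more abundant of the pair in both groups. Sox9, a transcription factor of distal lung progenitors and cartilage, rose by 0.83 (limma adjusted p = 0.0247) from 0.575 ± 0.146 to 1.13 ± 0.427 FPKM, but its call was lost without IncPBF lung 3 or 5 or sham lung 1. Bmp4 rose by 0.38 (limma adjusted p = 0.00261), Etv1 by 0.37 (0.00857) and Ccnd1 by 0.19 (0.0204), and the call of Ccnd1 was lost without IncPBF lung 1 or 2.

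**Figure D4:**
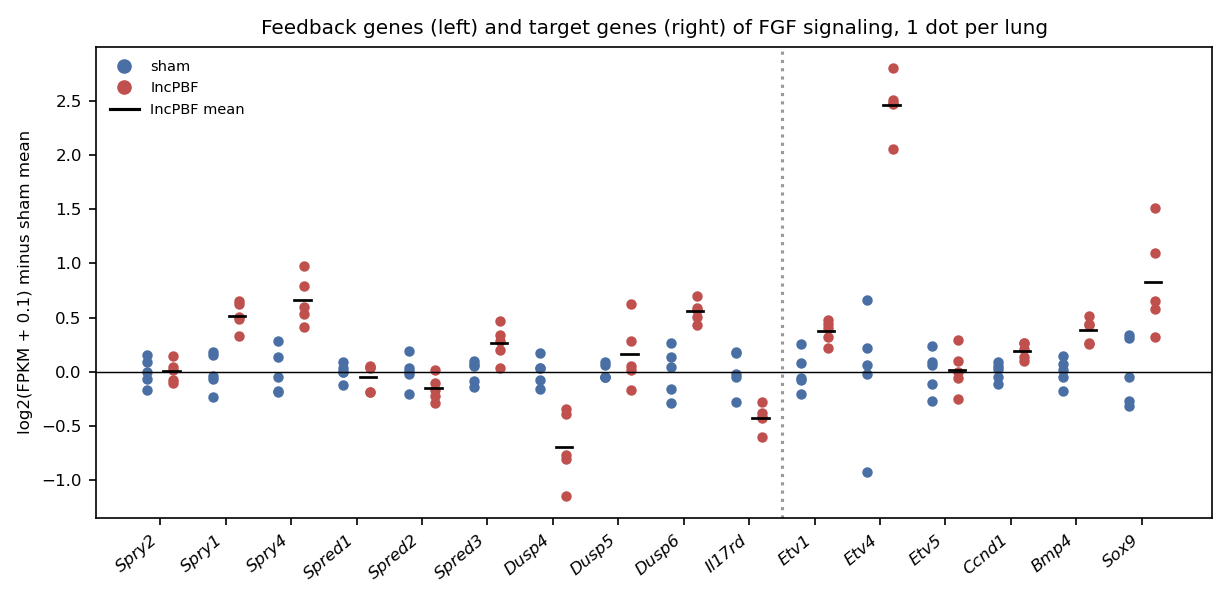
Log2(FPKM + 0.1) minus the sham mean (y axis) of Spry2, 9 other feedback genes and 6 target genes (x axis), with a dot per lung and a dash at the IncPBF mean. Etv4 stands at 2.47, Spry1, Spry4 and Dusp6 lie above the sham dots, Dusp4 and Il17rd lie lower, and Spry2 and Etv5 stay at 0.00 and 0.01.

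Outside the 10 members, 79 genes of the FGF pathway were listed by role, of which 60 were tested, and 23 of these (38.3%) were called, 13 higher and 10 lower, beside 32.3% of all genes tested. Of 17 other ligand genes 3 were tested. Fgf1, acidic FGF, which binds all FGF receptors, was 39.8, 40.1, 30.8, 35.6 and 41.1 FPKM in IncPBF lungs 1 to 5, and 58.1, 58.9, 46.3, 50.1 and 58.8 FPKM in sham lungs 1 to 5. The groups did not overlap, Fgf1 fell by 0.54 on the log2 scale (standard error 0.10, limma adjusted p = 0.00174), and its mean was above that of each of the 5 member ligands in both groups. Fgf12, an intracellular FGF that is not secreted, rose by 1.06 (1.11 ± 0.131 against 0.480 ± 0.0905 FPKM, limma adjusted p = 0.000813), and Fgf11 did not pass the test. Of the 14 ligand genes below the filter, 10 had at most 3 fragments in every lung, and Fgf4, Fgf6, Fgf15 and Fgf20 were listed at 0 throughout.

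Among the remaining steps of the pathway, calls ran in both directions. Of the 5 tested coreceptor and carrier genes, 0 were called by limma, 0 had an unadjusted p under 0.05 and 0 were called by limma-voom. Fgfrl1, a receptor without a kinase domain, was at 10.6 ± 0.679 against 9.84 ± 1.40 FPKM (adjusted p = 0.375). Of 16 tested genes for heparan sulfate and its core proteins, 37.5% were called, beside 32.3% of all genes tested: 3 rose, namely Ext1 by 0.31, Sdc2 by 0.29 and Hs6st1 by 0.29 on the log2 scale, and 3 fell, Sulf2 by 0.33, Extl3 by 0.25 and Sdc4 by 0.25. Ext1 elongates the heparan sulfate chain, Sdc2 and Sdc4 are syndecan core proteins, and Sulf2 removes sulfate groups from the chain. Of 21 genes of signal transduction, 23.8% were called: Shc1, an adaptor, rose by 0.17, and 4 fell, among them the adaptor Gab1 by 0.36, the Ras activator Sos2 by 0.29 and the kinase Braf by 0.21.

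IncPBF lung 1, the lung that matched the sham lungs in Xist, was examined on its own. It lay outside the range of the sham lungs, on the side of the call, for 5 of 5 called members and for 22 of the 23 other called genes, Hs6st1 being the exception, and for 91.8% of all 4970 called genes. Because this lung was part of the fit that made the calls, these counts are a description and no separate check of them. With log2 Xist as a covariate, Fgf18 remained called at 0.89 (limma adjusted p = 0.0242) and so did Etv4 at 2.45 (adjusted p = 0.0163). The group term of that fit rests mainly on IncPBF lung 1, so these calls depend on a single lung. Fgf9 at 0.83 (adjusted p = 0.375), Fgf2 at -0.28 (0.356), Fgf7 at -0.45 (0.318) and Fgfr3 at -0.31 (0.0891) were no longer called in that fit, and neither were Fgf1, Fgf12, Spry1, Spry4, Dusp6, Dusp4, Il17rd, Bmp4, Sox9, Etv1 and Ccnd1. With IncPBF lung 1 as the only IncPBF lung against the 5 sham lungs, the log2 fold change of Fgf18 was 0.91 and its adjusted p 0.10 in limma, which assumes that this lung would vary as the sham lungs do. Surgery and Xist level cannot be told apart in IncPBF lungs 2 to 5. Because Xist marks female cells, the same limit applies to sex, which no label states.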

How the data were processed

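The authors isolated RNA from P14 lungs with a column kit per the methods (Trizol per the labels), prepared NEBNext libraries, sequenced them on a NovaSeq instrument and deposited 1 table of FPKM with gene lengths. The submitters' processing notes name Bowtie 0.12.2 and the builds hg38, GRCm38 and mm10. The counting tool is not given in the sources used here. Coordinates matched GENCODE M21 on GRCm38 for all 10 members. The IncPBF columns carry another abbreviation (vo, for volume overload) than the titles and were taken as that group, since the remaining columns say sham. Only the group was matched, so the numbers of the IncPBF lungs are column numbers and do not point to single samples.

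All genes averaging 0.5 FPKM or more were fitted together on log2(FPKM + 0.1) with limma 3.58.1 (lmFit, eBayes with a trend, no covariates) in R 4.3.3, and p was adjusted over all 15388 genes. Exact permutation tests used all 252 assignments. FPKM times length gave whole fragments for 100% of values (within 0.02), with 16103423 to 20318525 per lung. Fragment numbers carry counting error beside the spread between lungs. The fit was run on simulated data with 200 changed genes, fewer than the 4970 called here, so that run checks the code and not these calls. Alternatives changed the pseudocount, filter, scaling, variance trend, replicate block, Xist covariate or lungs used, or applied limma-voom to the recovered fragments. The rule for named genes took all members, up to 3 of the largest called changes per direction and list, and close relatives of members whatever their result. These relatives were Fgf1, Spry1, Spry4, Etv4, Etv5, Dusp6 and Fgfrl1. The members, the lists and this rule were chosen with earlier results of these data known. Etv1, Ccnd1, Fgf11, Scgb1a1 with its values and the single heart muscle markers with theirs were named after their values were seen. So were the ligand genes named from below the filter and the genes that share exons with members.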

Additional observations from a re-analysis of the deposited data

How the results depend on the processing

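The 2 members called higher and 3 called lower became 1 and 0 with log2 Xist as a covariate and 0 and 0 when the lungs low in Xist alone were compared, the 13 and 10 other FGF pathway genes became 1 and 0, and 0 and 0, and the 2480 and 2490 of all genes became 328 and 413, and 42 and 112. These fits use fewer lungs or 1 more term. For the IncPBF group, the fit with the covariate rests mainly, and the other wholly, on IncPBF lung 1. A minimum mean of 1 FPKM left 1 member called higher, because Fgf9 is below it. The members called lower numbered 1 without a filter and 1 with an equal total of fragments per lung. The equal total also left 5 other genes called lower and gave 3559 genes called higher and 1782 lower (66.6% higher, against 49.9%). The median of all genes moved from 0.01 to 0.09. This scaling multiplies each lung in proportion to its divisor over its fragments on genes, which was 1.02 to 1.07 in the IncPBF lungs. In the sham lungs that proportion was 0.958 to 1.03. Why the divisors differed was not tested. With each lung left out in turn, 2 members stayed called higher and 1 to 3 lower, 12 to 15 and 6 to 13 other genes, and 1950 to 2535 and 1919 to 2699 of all genes. The 1 was without IncPBF lung 1 or 4 or sham lung 3 or 4, and the 6 without IncPBF lung 4 or sham lung 1 or 5. A fit without both IncPBF lung 1 and sham lung 5, chosen after seeing the data, called 4 other genes lower. The call of Fgf7 was lost in 11 of 23 alternatives and that of Fgfr3 in 15, that of Fgf18 in 1, that of Fgf2 in 2 and that of Fgf9 in 2 of 22.

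Only members and genes without a call changed sign. Fgfr1 was 0.075 with an equal total, 0.017 with quantile normalization, 0.050 without both lungs and -0.028 to 0.024 with each lung left out. Fgfr2 was 0.064, 0.0044 and -0.078 to 0.034 in the first, the second and the last of these, Fgfr4 0.053 with an equal total and -0.096 to 0.031 with each lung left out, Spry2 -0.00067 without both lungs and -0.039 to 0.041, and Etv5 -0.0019 in the lungs low in Xist and -0.054 to 0.082.

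The residuals of same-numbered lungs correlated at -0.0675 to 0.0854, and 2 of 5 lungs correlated best with their own number. No label states the litter or the date of surgery, so whether lung numbers pair the samples is not known. With the replicate block, 1 member was called lower and 2 higher. Depth limits Fgf9 most, with 13 fragments in the lowest lung.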

Other observations

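No lung of either group stood apart from the other 4 in any of the 10 genes by Dixon's test (20 groups of values examined, critical value 0.71), and chance alone would set apart about 1 group in 20. Fgf13, an intracellular relative of Fgf12 that was below the filter, was 0.108 to 0.252 FPKM in the IncPBF lungs against 0.0286 to 0.132 FPKM in the sham lungs, on 2 to 19 fragments per lung, and was not tested. It was picked after the values of the 14 ligand genes below the filter were seen, and the groups overlapped in all of these genes.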
